A study of Petromyzon marinus with 21 samples.

Results

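Aspartate aminotransferase and hydroxylysine kinase are the 2 enzymes of amino acid metabolism in a NanoString panel read on sea lamprey embryos and testes. They were chosen by annotation, as the probes whose annotation names either enzyme: comp293586 for aspartate aminotransferase and comp293109 for hydroxylysine kinase. They are 2 of 43 target probes, of which 19 carry an annotation and 24 do not, and no other annotated target names an enzyme that acts on amino acids. Both were among the 38 target probes above background in at least 3 embryo lanes, which were tested.

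On the nCounter each transcript is captured by a probe with a colour barcode, and single barcodes are counted with no amplification step. Adult testes of the sea lamprey (Petromyzon marinus, a jawless vertebrate) gave 3 technical replicates, which are 1 biological sample. Whole embryos were taken at 6 ages named for the day after fertilization (D1 and D2, then D2.5 and D3, then D4 and D5), with 3 biological samples per age. They came from fertilized eggs kept at 18 °C in 10% Holfretter's solution, and the labels name no strain, genotype or treatment that would set the ages apart.

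Aspartate aminotransferase moves an amino group between aspartate and glutamate and their keto acids. In vertebrates it exists in a cytosolic and a mitochondrial form, which together carry reducing equivalents into mitochondria in the malate-aspartate shuttle. Hydroxylysine kinase phosphorylates free hydroxylysine with GTP, a step in the breakdown of the hydroxylated lysine that collagen turnover releases. The annotation does not say which form of aspartate aminotransferase comp293586 reads.

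Embryo lanes held 504 to 15415 target counts and testes lanes 450972 to 473907. The background of a lane, the mean + 2 SD of its 8 negative control probes, was 7.78 to 23.2 counts in embryos and 127 to 136 counts in testes. Column names open with 3 dates, the first with D1 to D3, the second with D4 and D5 and the third with testes. A later field, which also reads as a date, is shared by the D4, D5 and testes lanes and differs in D1 to D3. Lanes of the same opening date are called a run here, though the labels name no instrument run. Column names also give 4 lanes a tag that no sample title holds, so these lanes were not matched to a replicate number. They are called the unnumbered lanes a and b of D4 and of D5 here. D4 lane a and both D5 lanes share a tag, which a number follows in the D5 names. The labels do not explain the tags or say how lanes that share one are related. The fits and SDs counted each of these lanes as a separate sample, which overstates the sample number if such lanes are related. In both stages these unnumbered lanes stood apart from the numbered lane, with a chi-square of their counts per degree of freedom of 21.2 to 75.4, against 2.74 between D4 lanes a and b and 2.69 between D5 lanes a and b. Replicate 3 of D2.5 and of D3 also stood apart from the other lanes of its stage (18.6 to 92.1). The 3 testes lanes agreed within sampling noise (0.890 to 1.28) and were counted as 1 sample. Of 6 germ cell marker probes (3 for SYCP1 of the synaptonemal complex, HFM1, Piwi-1 and Piwi-2), 5 were above background in every testes lane and Piwi-2 in none. Their counts summed to 12061 to 12671 in testes lanes and 38 to 442 in embryo lanes.

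Aspartate aminotransferase was above background in every lane of every stage from day 1 on. Hydroxylysine kinase exceeded background in none of the D1 lanes and in all lanes of D2.5 and D3, where 34.9% and 58.1% of the target probes did so in all lanes. At D1, 83.7% of the target probes were below background in every lane. At D3 and at D5, each set against D1, hydroxylysine kinase rose and aspartate aminotransferase did not pass the test on the scale of the reference probes. Most of the panel rose too: 76.3% of the 38 tested probes were called higher at D3 and 63.2% at D5. Most of the 38 could reach 3 lanes above background only through later stages, which favours a rise. When all 43 target probes were tested, 29 were called higher at D3 and 25 at D5 (edgeR). With scalings set by the target probes, TMM and DESeq2's size factors, the D5 call of hydroxylysine kinase was lost and aspartate aminotransferase was called lower at D3. In testes the ratio of hydroxylysine kinase to aspartate aminotransferase was far above that of any embryo lane. It was 945 to 1015 counts per 100 counts in testes lanes, against at most 31.3 per 100 in embryo lanes. By count, aspartate aminotransferase ranked 38 of the 43 target probes in every testes lane, and was the highest in 15 of 18 embryo lanes. It ranked no lower than 5 in any embryo lane, so most other targets also rose against it in testes. Their exact number was not counted. Probes can differ in efficiency, so levels are compared within a probe, and between both probes only as a change of their ratio.

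Raw counts of aspartate aminotransferase were 1088, 314 and 1735 in D1 replicates 1, 2 and 3, and 1501, 1399 and 361 in those of D2. They were 1287, 1466 and 1674 at D2.5 and 323, 1827 and 819 at D3. At D4 the numbered lane had 897 counts, lane a 891 and lane b 352, and at D5 these lanes had 2347, 1279 and 1229. Every embryo lane was thus far above its background, by 17.6 to 178 times with a median of 84.3. At D1 only 3 of the 43 target probes (6.98%) exceeded background in every lane, and aspartate aminotransferase was one of them. Single low lanes occurred in D1, D2, D3 and D4, and all D4 lanes had fewer counts than any D2.5 or D5 lane.

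Lanes were then scaled by the geometric mean of 2 reference probes, EF1A_A and HCFC-1, which were above background in all 18 embryo lanes. EF1A_A reads elongation factor 1 alpha, of protein synthesis, and HCFC-1 host cell factor 1, a transcriptional cofactor. This rule left out the reference-class probe RPS9, above background in 17 of 18 embryo lanes. Raw counts of RPS9 averaged 21 at D1, 1073 at D3 and 3652 at D5, so it rose as well. Scaling by RPS9 was not run. Scaled counts of aspartate aminotransferase averaged 1135 ± 407 in D1 lanes, 1201 ± 321 in D2 lanes, 1039 ± 142 in D2.5 lanes, 916 ± 242 in D3 lanes, 781 ± 197 in D4 lanes and 1567 ± 193 in D5 lanes (SD, n = 3 each). The lowest of the 18 lanes was 569, the median 1063 and the highest 1754, a 3.08-fold span. In order of level the stages ran D5, D2, D1, D2.5, D3 and D4, and the lanes of every neighbouring pair in that order overlapped. A smaller scaled count in whole embryos can mean fewer cells that hold the transcript or less of it in each cell, which cannot be told apart.

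**Figure D1:**
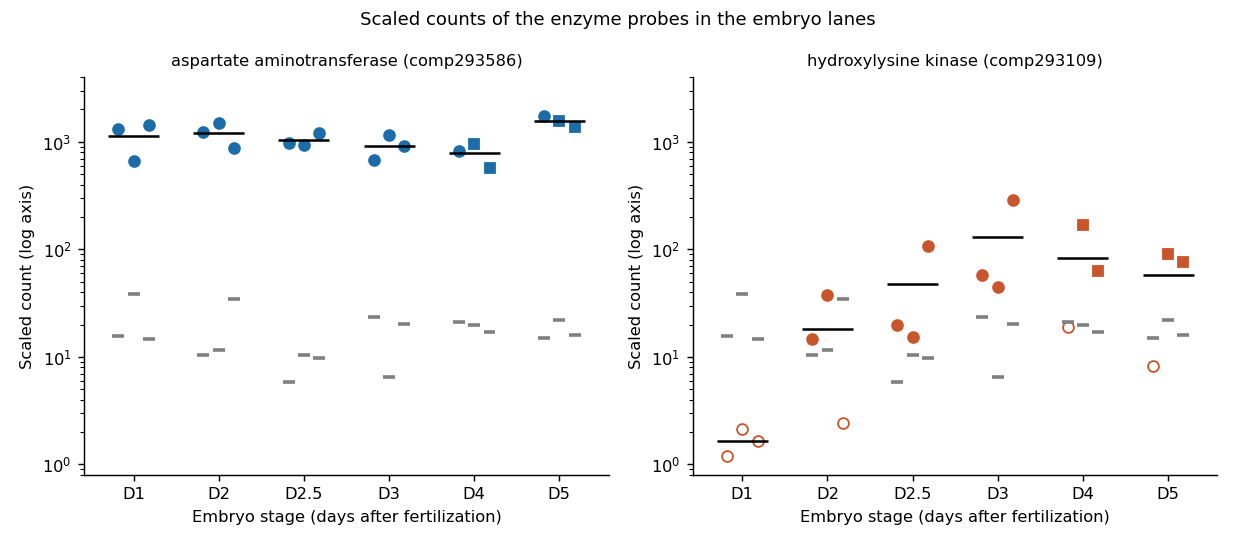
Scaled counts (log axis) of aspartate aminotransferase (left) and hydroxylysine kinase (right) in each embryo lane, by days after fertilization. Circles are numbered lanes, squares the unnumbered lanes a and b, open symbols lanes below background, grey ticks the background of that lane and bars the stage mean. Aspartate aminotransferase stays between 569 and 1754 scaled counts, while hydroxylysine kinase lies below background in all 3 D1 lanes and reaches 288 in 1 D3 lane.

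Raw counts of hydroxylysine kinase were 1, 1 and 2 in the D1 replicates, and 18, 35 and 1 in D2 replicates 1, 2 and 3. They were 26, 24 and 151 at D2.5 and 28, 71 and 256 at D3. The numbered lane, lane a and lane b had 21, 155 and 39 counts at D4, and 11, 73 and 68 counts at D5. All D1 lanes lay below backgrounds of 13.2 to 17.9 counts, as did D2 replicate 3. At D4 and D5 the numbered lanes were also below background, with 21 counts against 23.2 and 11 counts against 19.9, so that detection after D3 rested on the 4 unnumbered lanes. In all, 12 of 18 embryo lanes were above background. Being undetected at D1 was the common state of the panel, since 36 of the 43 target probes, 83.7%, were below background in every D1 lane.

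Scaled counts of hydroxylysine kinase averaged 1.66 ± 0.47 in D1 lanes, 18.3 ± 17.9 in D2 lanes, 47.8 ± 52.5 in D2.5 lanes, 130 ± 137 in D3 lanes, 83.0 ± 75.8 in D4 lanes and 58.0 ± 43.7 in D5 lanes (SD, n = 3 each). From D2 on the SD was about as large as the mean, and 1 lane often stood high: 108 at D2.5 against 19.6 and 15.5, and 288 at D3 against 58.2 and 44.9. In order of level the stages ran D3, D4, D5, D2.5, D2 and D1. Neighbours in that order overlapped, except that the scaled lanes of D2 (2.40 to 37.7) lay above those of D1 (1.20 to 2.14), as they did for 12 of the 38 tested probes (31.6%). No order of D2 replicate 3 and D1 can be read from this, since both are below background: the raw counts, the counts per HCFC-1 and the scaling by positive controls all overlapped.

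Because D1 gives only a bound for hydroxylysine kinase, later levels were set against the mean D1 background of 22.9 scaled counts. The D2.5 mean was at least 2.09-fold higher than that background, the D3 mean at least 5.70-fold, the D4 mean at least 3.63-fold and the D5 mean at least 2.54-fold. The D2 mean was under it and gives no fold. These bounds rest on single lanes. Without D3 replicate 3 the D3 mean was 51.5 scaled counts and its bound 2.25-fold, without D4 lane a the D4 bound was 1.79-fold, and without D2.5 replicate 3 the D2.5 mean of 17.5 lay under the D1 background. D1 replicate 2 had the highest D1 background, and without it the D2.5, D3, D4 and D5 bounds were 3.14-fold, 8.56-fold, 5.45-fold and 3.81-fold.

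The comparison of D3 with D1 spans the ages of the first run. Hydroxylysine kinase had 58.2, 44.9 and 288 scaled counts at D3, against 1.20, 2.14 and 1.65 at D1, and its lanes did not overlap, as was the case for 28 of the 38 tested probes (73.7%, all higher at D3). The fitted log2 fold change was 6.23 (SE 1.51, 95% interval 3.27 to 9.18, edgeR adjusted p = 0.000543). The fit takes the D1 counts, all below background, as they are, so the measured bound of 5.70-fold is smaller. The probe entered the test only through lanes of later stages. Hydroxylysine kinase ranked 5 of 38 from the top, in a panel where 29 probes rose (76.3%) and 1 fell (2.63%), or 78.9% called in all. The median over the 38 probes was 4.36, so hydroxylysine kinase rose among many targets that rose. Aspartate aminotransferase had 672, 1155 and 922 scaled counts at D3, against 1304, 671 and 1430 at D1, and the lanes overlapped. Its log2 fold change was -0.31 (SE 1.75, 95% interval -3.74 to 3.12, edgeR adjusted p = 0.860), rank 37 of 38. That interval leaves room for a change of either sign: edgeR draws the spread of a probe partly from the panel.

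How many targets rose depended on the scaling. TMM gave 6 probes higher and 14 lower at D3 than at D1, and DESeq2's size factors 7 higher and 14 lower, with panel medians of -0.17 and -0.05 on the log2 scale. Both scalings are set by the target probes themselves, so that a rise common to the panel is removed. Hydroxylysine kinase rose under TMM as well, with a log2 fold change of 1.72 (edgeR adjusted p = 0.0497), and under DESeq2's size factors, with 1.79. Aspartate aminotransferase fell by 3.82 on the log2 scale with TMM (edgeR adjusted p = 0.0402) and fell by 3.88 with DESeq2's size factors (edgeR adjusted p = 0.0272). The count of calls fell to 19 probes without D3 replicate 3, and hydroxylysine kinase kept its call whichever single lane was left out (log2 fold change 4.89 to 6.63).

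**Figure D2:**
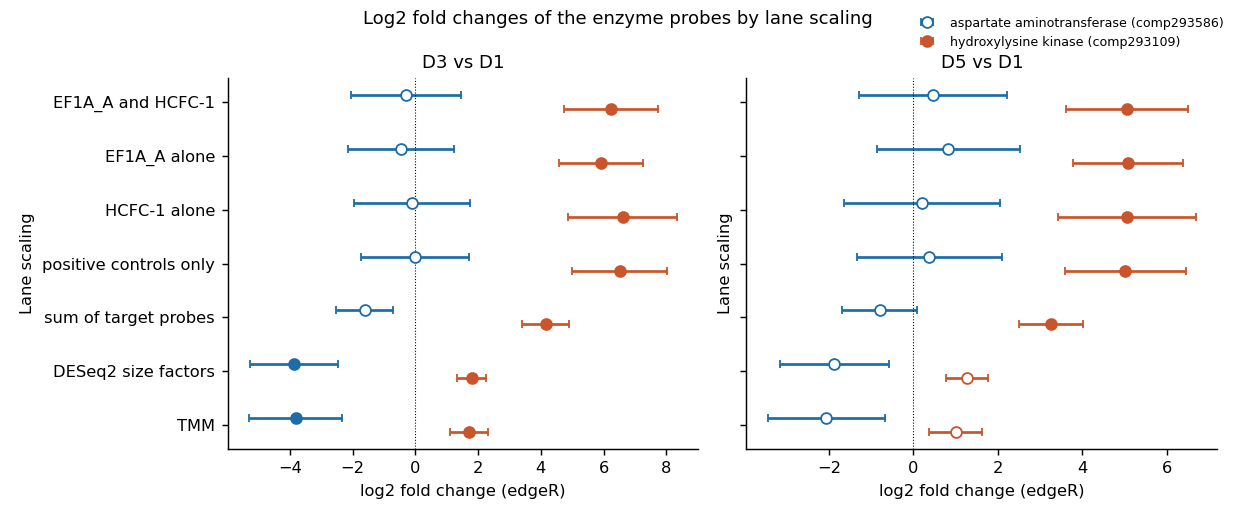
Log2 fold changes (edgeR, points with SE bars) of aspartate aminotransferase (blue) and hydroxylysine kinase (orange) under 7 lane scalings, for D3 vs D1 (left) and D5 vs D1 (right). Filled points have an adjusted p under 0.05. Hydroxylysine kinase lies to the right of aspartate aminotransferase in every row, and both shift to the left with the scalings set by the target probes.

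At D5 hydroxylysine kinase had 8.22 scaled counts in the numbered lane, 90.2 in lane a and 75.7 in lane b, against 1.20, 2.14 and 1.65 at D1. The lanes did not overlap, as for 20 of the 38 tested probes (52.6%, all higher at D5). For hydroxylysine kinase the numbered D5 lane and all D1 lanes were below background, so no order of these lanes can be read. The log2 fold change was 5.06 (SE 1.45, 95% interval 2.22 to 7.89, edgeR adjusted p = 0.0028), rank 11 of 38. This fit also takes the D1 counts as they are, and the measured bound is 2.54-fold. At D5, 24 of 38 probes, 63.2%, were called higher than at D1 and 1 (2.63%) was called lower, or 65.8% in all, with a panel median of 3.50. TMM turned this to 2 higher and 10 lower and DESeq2's size factors to 7 higher and 10 lower, and under both the call of hydroxylysine kinase was lost, with log2 fold changes of 1.00 (edgeR adjusted p = 0.241) and 1.27 (edgeR adjusted p = 0.0986). Among the 14 numbered embryo lanes, a choice made after the data were seen, the log2 fold change was 2.26 (edgeR adjusted p = 0.791), but 1 lane, itself below background, then stands for D5 and is assumed to vary like the other stages. No probe was called there with edgeR, and none had an unadjusted p under 0.05. The number of probes called in either direction, 25 with all lanes, was 14 with D1 replicate 1 left out, 13 with D1 replicate 3 left out and 16 with D5 lane a left out.

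Aspartate aminotransferase had 1754, 1579 and 1368 scaled counts at D5, against 1304, 671 and 1430 at D1. The D5 mean was higher, and the lanes overlapped. The log2 fold change was 0.47 (SE 1.75, 95% interval -2.97 to 3.90, edgeR adjusted p = 0.812), rank 36 of 38. Its sign turned with TMM (-2.06), DESeq2's size factors (-1.87) and the sum of the target probes (-0.80), none of which passed the test (edgeR). D5 and D1 were read in different runs, and stage and run cannot be told apart there.

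**Figure D3:**
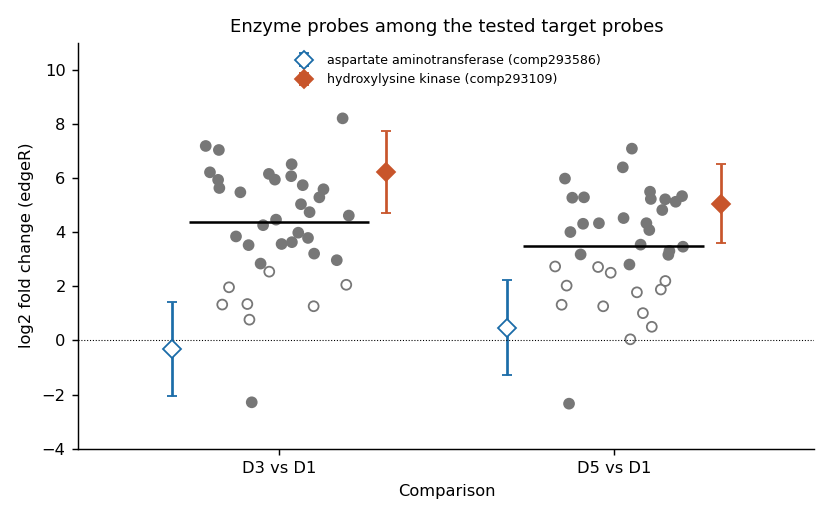
Log2 fold changes (edgeR) of the 38 tested target probes for D3 vs D1 and D5 vs D1. Grey points are the other 36 probes, filled where the adjusted p is under 0.05, black bars the panel medians (4.36 and 3.50), and diamonds with SE bars the enzymes. Aspartate aminotransferase lies near the bottom of the panel in both comparisons and hydroxylysine kinase above the median.

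The contrast between both enzymes was tested directly as the change of their ratio within a lane, which needs no reference probe. Counts of hydroxylysine kinase per 100 counts of aspartate aminotransferase were 8.67, 3.89 and 31.3 at D3, against 0.0919, 0.318 and 0.115 at D1. The log2 change of the ratio was 6.56 (SE 1.54, edgeR adjusted p = 0.000318). Single D1 lanes had backgrounds of 1.03 to 5.69 per 100, and D3 replicate 2, at 3.89, lay under the highest of these. Set against aspartate aminotransferase in this way, 30 of the 37 other tested probes rose (81.1%), so the rise of the ratio was shared by most of the panel. As the D1 counts of hydroxylysine kinase lie below background, the measured bound is smaller: the D3 ratio was at least 5.52-fold higher than the mean D1 background of 2.64 per 100, or 2.37-fold without D3 replicate 3 and 13.1-fold without D1 replicate 2.

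The ratio averaged 0.175 ± 0.125 per 100 in D1 lanes, 1.33 ± 1.12 in D2 lanes, 4.23 ± 4.16 in D2.5 lanes, 14.6 ± 14.6 in D3 lanes, 10.3 ± 7.56 in D4 lanes and 3.90 ± 2.98 in D5 lanes (SD, n = 3 each). At D5 it was 0.469 in the numbered lane and 5.71 and 5.53 in lanes a and b. The numbered lane and all D1 lanes were below background for hydroxylysine kinase. Single D1 lanes had backgrounds of 1.03 to 5.69 per 100, and of the D5 lanes only lane a lay above all of these. D5 against D1 gave a log2 change of 4.65 (SE 1.45, edgeR adjusted p = 0.00797). Of the 37 other probes 18 rose against aspartate aminotransferase there (48.6%). The call ended without D1 replicate 1 (edgeR adjusted p = 0.0816) and without D1 replicate 3 (edgeR adjusted p = 0.0973). Among the numbered lanes alone the log2 change was 1.64 (edgeR adjusted p = 0.942), but D5 is then 1 lane, below background for hydroxylysine kinase and assumed to vary like the other stages. Against the D1 background the D5 ratio was at least 1.48-fold higher, 1.13-fold without D1 replicate 3 and 3.49-fold without D1 replicate 2.

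**Figure D4:**
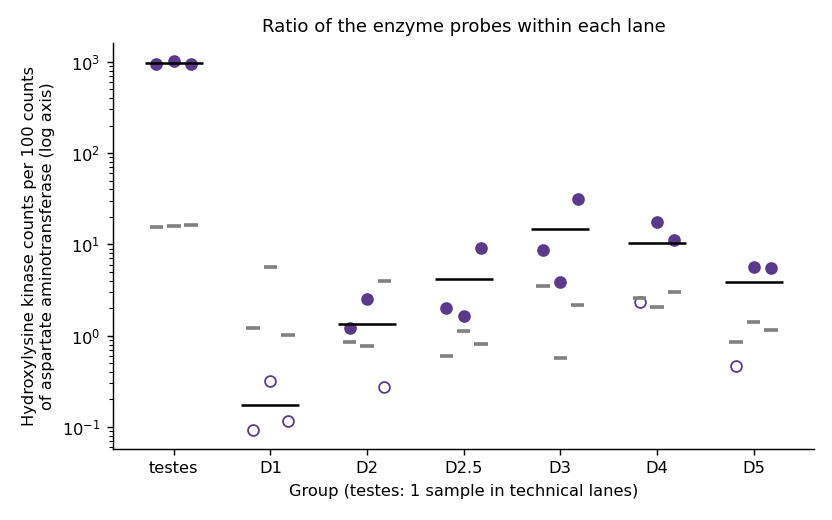
Counts of hydroxylysine kinase per 100 counts of aspartate aminotransferase (log axis) in each of the 21 lanes, by group. Open circles are lanes where hydroxylysine kinase was below background, grey ticks the background of the lane on the same scale and bars the group mean. The D1 lanes lie between 0.0919 and 0.318, the D3 lanes between 3.89 and 31.3, and the technical testes lanes between 945 and 1015.

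Over all 6 stages jointly, hydroxylysine kinase differed between stages (edgeR adjusted p = 0.00883), as did 20 of the 38 probes (52.6%), and aspartate aminotransferase did not pass (edgeR adjusted p = 0.995). The joint call of hydroxylysine kinase ended when any single D1 lane was left out (replicates 1, 2 and 3, edgeR adjusted p = 0.0686, 0.0548 and 0.0954), and the number of probes called was then 0, 4 and 0, with 17, 23 and 15 at an unadjusted p under 0.05. It ended as well with TMM, DESeq2's size factors and background subtraction (edgeR adjusted p = 0.0849, 0.0876 and 0.0586). A permutation test over the lanes of each probe alone, added after the data were seen, took the upper tail of the spread between stage means. This permutation test gave p = 0.0172 for hydroxylysine kinase (Benjamini-Hochberg p = 0.0343 over the 2 tests). Its stage means spanned 5.13 on the log2 scale, from D1 to D3. Both this permutation test and the joint fit took the D1 counts, all below background, as they are. The measured bound for D3 over D1 was 5.70-fold. Hydroxylysine kinase also entered the joint test only through lanes of later stages. For aspartate aminotransferase this permutation test gave p = 0.0943, with stage means spanning 1.03. With EF1A_A as the only reference probe its permutation p was 0.00179, and with HCFC-1 as the only one 0.804.

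With either reference probe the highest and lowest stage means of aspartate aminotransferase were those of D5 and D4, both read in the second run. Aspartate aminotransferase had 1754, 1579 and 1368 scaled counts at D5, against 816, 959 and 569 at D4, a 2.01-fold higher mean with no overlap. Of the 38 tested probes, 2 (5.26%) had D5 lanes all above the D4 lanes. An exact permutation test of these lanes gave p = 0.1, the smallest that 3 lanes against 3 allow, and the panel fit gave a log2 fold change of 1.00 (SE 1.76, edgeR adjusted p = 0.982), the largest of the 38. No probe passed in D5 vs D4 with edgeR, and none had an unadjusted p under 0.05. Per count of EF1A_A the D5 lanes had 2.85 to 6.78 counts of aspartate aminotransferase, against 1.15 to 1.99 in D4 lanes. Per count of HCFC-1 the lanes overlapped, with 16.6 to 27.2 at D5 against 10.4 to 20.7 at D4. Hydroxylysine kinase went the other way, with a log2 fold change of -0.52 (SE 1.15, edgeR adjusted p = 0.982), rank 37 of 38, which was 0.50 without D4 lane a. This comparison was chosen after the stage means were seen.

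Aspartate aminotransferase took a large share of all target counts in the youngest embryos. It gave 65.0%, 62.3% and 72.8% of the target counts in the 3 D1 lanes (exact 95% intervals 62.6 to 67.2%, 57.9 to 66.5% and 70.9 to 74.6%). The stage means were 66.7 ± 5.45% for D1, 58.0 ± 9.47% for D2, 44.1 ± 24.8% for D2.5, 21.8 ± 16.9% for D3, 25.0 ± 22.4% for D4 and 38.3 ± 30.9% for D5 (SD, n = 3 each). Lanes within a stage differed most at D5, with 74.0% in the numbered lane and 21.4% and 19.6% in lanes a and b. It had the highest count of the target probes in 15 of 18 embryo lanes, which reflects the efficiency of the probes as well as the level. A share depends on all other targets, and the scaled level of aspartate aminotransferase gave no call over the stages (edgeR, above).

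Hydroxylysine kinase took 0.0597 to 0.198% of target counts in D1 lanes and at most 1.81% in any embryo lane. With aspartate aminotransferase taken out of the total, its share in the 12 embryo lanes above background was 1.35 to 3.07%, with a median of 2.00%, and in the 6 lanes below background it was 0.170 to 2.41%, with a median of 0.482%. In the testes lanes this share was 1.74 to 1.76%. These intervals and shares cover counting error only.

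**Figure D5:**
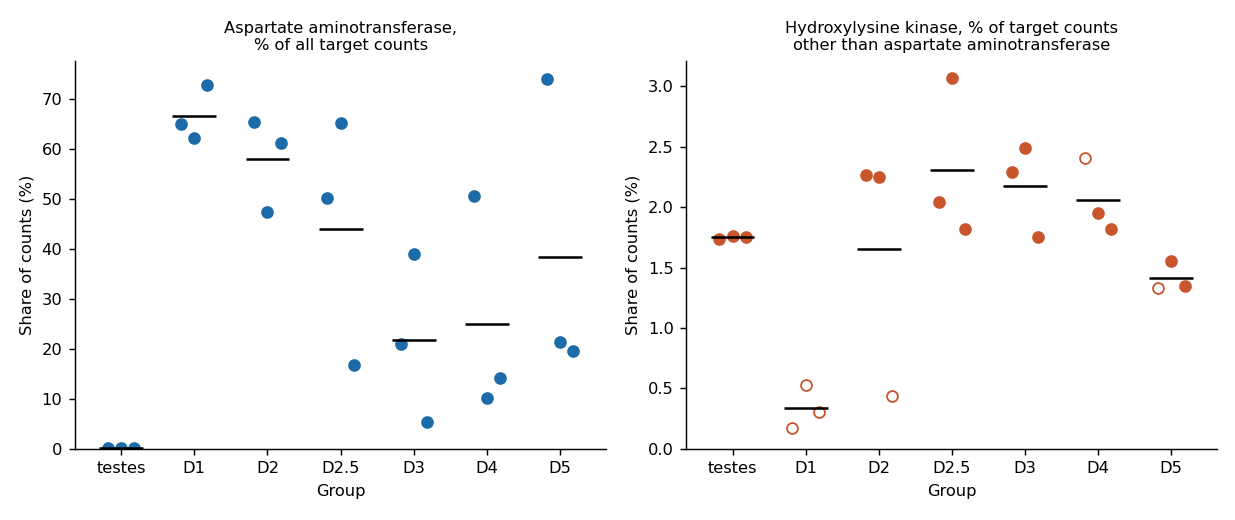
Share of counts in each lane, by group, with bars at the group mean: aspartate aminotransferase as a percent of all target counts (left), and hydroxylysine kinase as a percent of the target counts other than aspartate aminotransferase (right, open circles below background). Aspartate aminotransferase takes 0.173 to 0.184% in the technical testes lanes and 62.3 to 72.8% at D1, and hydroxylysine kinase takes 1.74 to 1.76% in testes lanes and 1.35 to 3.07% in the embryo lanes above background.

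In the testes lanes aspartate aminotransferase had 870, 800 and 829 counts and hydroxylysine kinase 8219, 8116 and 7900. Aspartate aminotransferase was 6.11 to 6.50 times the background of its lane, and hydroxylysine kinase 58.3 to 63.8 times. Both were detected in every testes lane, as were 42 of the 43 target probes (97.7%).

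Levels in testes were set against embryos on HCFC-1 alone, since EF1A_A had 12 to 22 counts in testes lanes and was below background there. Testes are 1 biological sample in a run of their own, so no test was possible, and tissue, age and run cannot be told apart. On this scale hydroxylysine kinase averaged 3498 scaled counts in testes, against 213.8 at D3, its highest stage, a 16.4-fold ratio. Without D3 replicate 3 the D3 mean was 63.2 and the ratio to D3 was 55.3-fold, and D4 was then the highest stage, with a ratio of 28.0-fold. Leaving out any other single lane gave no less than 12.02-fold. Over the D1 background it was at least 129-fold. Scaling by the positive controls raised the ratio to the highest stage to 42.4-fold, and as a share of target counts it was 1.05-fold.

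Aspartate aminotransferase averaged 361 scaled counts in testes on HCFC-1, against 1076 at D4, its lowest stage, and 1686 at D5, its highest, or 0.336 and 0.214 of them. The direction for aspartate aminotransferase depends on the reference. With the positive controls testes had 0.941 of the D4 mean and 0.409 to 0.541 of the other stage means, so they were lower than each stage, as on HCFC-1. The raw counts of testes lanes lay within those of the embryos. On EF1A_A, itself below background in testes, testes were 31.5-fold higher than D4. For hydroxylysine kinase the testes were higher on each of these scales.

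The ratio of both enzymes, which no reference probe touches, was 945, 1015 and 953 counts of hydroxylysine kinase per 100 of aspartate aminotransferase in the testes lanes. It was at most 31.3 in any embryo lane. By count, aspartate aminotransferase ranked 38 of the 43 target probes in each testes lane, and hydroxylysine kinase 11. With aspartate aminotransferase taken out of the total, hydroxylysine kinase took 1.74 to 1.76% of target counts in testes lanes. The median share in embryo lanes above background was 2.00%. As aspartate aminotransferase ranked no lower than 5 in any embryo lane, most other targets also rose against it in testes. The rise of the ratio was thus shared by most of the panel, and the exact number of targets was not counted. The summed counts of the germ cell markers were higher in testes as well, at 12061 to 12671 against 38 to 442 in embryo lanes, mostly from HFM1 (comp293440, mean 5903 in testes) and the SYCP1 probe comp292635 (mean 5010). Not all markers were: the SYCP1 probe comp292635_9 averaged 185 counts in testes and 200.3 at D1, and Piwi-2 was below background in every testes lane. The marker sums are not scaled for lane depth. In D1 replicates 1, 2 and 3 they were 442, 87 and 424, with 21 to 294 counts from comp292635_9 and 1 count of HFM1 in each lane. The count of hydroxylysine kinase per count of HFM1, a helicase of meiotic crossing over, was 1.36 to 1.38 in testes and 2.27 to 5.07 in the 8 embryo lanes where HFM1 was above background. The part of germ cells in the testes values was not tested.

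The probes most like each enzyme were named by the SD of the within-lane log2 ratio over the 18 embryo lanes, among 42 candidates, where a small SD means that 2 probes kept their ratio. The probes of a ratio share the lane and its depth, so this is a description. For aspartate aminotransferase the nearest were both reference probes, EF1A_A with an SD of 0.58 and HCFC-1 with 0.59, and comp280581, annotated as a MAD2L1-binding protein, with 0.62. The median over all candidates was 1.88. Aspartate aminotransferase therefore kept a steadier ratio to EF1A_A and HCFC-1 than to any of the target probes compared.

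For hydroxylysine kinase the nearest was the unannotated comp254454, with an SD of 0.39. Next came comp266794, annotated as cordon-bleu, apoptosis inhibitor, and comp285297_12, annotated as baculoviral IAP repeat-containing protein 1, apoptosis inhibitor, each with 0.44. The median over all candidates was 1.07. Other probes with these annotations were not alike: comp287546 (cordon-bleu) had 1.42 and comp285297 (baculoviral IAP repeat-containing protein 1) had 1.17. The scaled counts of comp254454 averaged 1.79 ± 0.84 at D1, 123 ± 150 at D3 and 70.8 ± 55.1 at D5 (SD, n = 3 each). Like hydroxylysine kinase it was lowest at D1 and varied widely between lanes of the later stages. This comes with its choice by likeness in these same lanes.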

How the data were processed

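Raw counts per probe were deposited by the authors, per the file headers, as whole numbers for 21 lanes and 63 probes (43 target, 6 reference class, 6 positive and 8 negative controls). The authors also deposited a normalized signal for each probe. Its method is not given in the sources used here, and it entered only as an alternative.

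Background was set in each lane at 2 SD over the mean of the negative controls, and 38 target probes above it in at least 3 of the 18 embryo lanes were tested. For embryo lanes the scale was the geometric mean of EF1A_A and HCFC-1, the reference-class probes above background in all of them, with a mean factor of 1, and for all 21 lanes it was HCFC-1. Counts of embryo lanes were fitted with edgeR 4.0.16 (R 4.3.3; quasi-likelihood, robust, 6 stages, two-sided), with Benjamini-Hochberg adjustment over the tested probes and a threshold of 0.05. The ratio test used the count of comp293586 as the lane scale. The SE is the log2 fold change over the square root of F, and the 95% interval is 1.96 SE to either side. Alternative scalings were TMM and DESeq2's size factors from the tested probes, the sum of target counts, positive controls, and EF1A_A or HCFC-1 alone. Other alternatives were no filter, background subtraction, DESeq2 1.42.0, limma 3.58.1 on log2(scaled count + 1) and on the deposited signal, and leaving out lanes. Permutation tests used 100000 resamples of a probe's log2 scaled counts, or all 20 splits of 6 lanes.

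The labels do not say whether a replicate number pairs lanes across stages. Same-number lanes were correlated by their deviations from stage means. In 1 of 6 stage pairs of the first run every correlation was over 0.1 (range -0.68 to 0.79), and D3 with D1 was not that pair, so the numbers were not used as a block. In counts simulated for D5 vs D1 over 38 probes, edgeR recovered 56% of 16-fold and 99% of 64-fold changes and called 0.455% and 1.06% of unchanged probes. There each probe started from its mean over all embryo lanes, and only a few probes changed. All probes had the same dispersion, and the lane factors were taken as known. These rates therefore do not cover a probe below background at D1, or a panel that shifts together.

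Probes were named by annotation (the 2 enzymes, germ cell markers), as reference probes, or as the 3 most like each enzyme. The members and lists were chosen with earlier results of these data known. No sequences of these probes were used here.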

Additional observations from a re-analysis of the deposited data

How the results depend on the processing

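Of 481 alternative values over 20 results, 440 were counted as kept. For fold changes and p-values this means the same direction and side of the threshold, and for testes ratios a move within their SD. Counts of probes or lanes were allowed a moderate change, so that 17 probes for D5 vs D1 against 25 was counted as kept. Hydroxylysine kinase in testes over its highest stage was kept at 1.05 against 16.4, as its SD exceeded the ratio itself. Some values could not change, such as testes ratios without a lane that does not enter them. Hydroxylysine kinase stayed called for D3 vs D1 in all of the alternatives run (log2 fold change 1.72 to 10.03, edgeR, limma and DESeq2). So did its ratio to aspartate aminotransferase (5.34 to 10.32). Scaling by RPS9, which also rose from D1, was not among these alternatives. For D5 vs D1, aspartate aminotransferase turned to -2.06 (TMM), -1.87 (size factors of DESeq2) and -0.80 (sum of target counts). Hydroxylysine kinase gave 1.00 and 1.27 with the first and second of these. The replicate number as a block, possible in the numbered lanes only, gave 3.06 for hydroxylysine kinase (edgeR adjusted p = 0.558) and 2.29 for the ratio (edgeR adjusted p = 0.944) in D5 vs D1, and these lanes without the block gave 2.26 and 1.64; D5 is 1 lane in both. Leaving out single lanes gave the ratio 4.26 to 5.19, and for D5 vs D4 hydroxylysine kinase -0.99 to 0.50. Over 6 stages the adjusted p (edgeR) of hydroxylysine kinase was 0.0849 with TMM, 0.0876 with DESeq2's size factors, 0.0586 after background subtraction and 0.000916 to 0.0954 without single lanes. For D3 vs D1, aspartate aminotransferase passed the test with TMM (-3.82) and DESeq2's size factors (-3.88), and its permutation p over stages was 0.00179 with EF1A_A alone. Probes called for D5 vs D1 numbered 12 with TMM, 15 with limma, 0 in the numbered lanes with the replicate block (1 at an unadjusted p under 0.05, edgeR) and 0 without it (0 at an unadjusted p), and 13 to 28 without single lanes. For D3 vs D1 they numbered 19 to 31 without single lanes. Over 6 stages they numbered 6 with TMM, 9 with DESeq2's size factors, 0 after background subtraction (13 at an unadjusted p, edgeR), 5 with the replicate block and 0 to 29 without single lanes. Testes over the lowest stage of aspartate aminotransferase was 0.941 with positive controls, 0.00828 as a share of target counts and 31.5 with EF1A_A alone. Testes over the highest stage of hydroxylysine kinase was 42.4 with positive controls and 2164 with EF1A_A alone, which is below background in testes. By construction TMM and DESeq2's size factors remove a change common to most targets. The sum of target counts left panel medians of 2.12 (D3 vs D1) and 1.70 (D5 vs D1), against 4.36 and 3.50 on the reference probes. For the other settings the cause was not tested. At D1 the 1 or 2 counts of hydroxylysine kinase limit any fold to a bound. Other detection thresholds put it above background in 12 to 14 embryo lanes and left aspartate aminotransferase at 18.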

Other observations

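In the authors' deposited table of normalized signal the testes values of aspartate aminotransferase were 1972 to 2821, above the D1 to D4 means of 729 to 1265 and near those of D5, 1311 to 3129. This is the opposite order to that on HCFC-1. For hydroxylysine kinase the deposited table had a mean of 24430 in testes and means of 1.58 in D1, 99.6 in D3 and 54.2 in D5 embryos.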
